A study of Homo sapiens with 20 samples.

Results

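The genes described here are 9 genes of the aryl hydrocarbon receptor (AHR) pathway, taken as the rows of the deposited count table with the symbols AHR, ARNT, AHRR, CYP1A1, CYP1B1, CYP2S1, TIPARP, NQO1 and ALDH3A1, out of 60656 rows with 59609 distinct symbols. Each symbol had exactly 1 row. The set was proposed, as a readout of plant-derived ligands, with earlier results of these data known, and CYP2S1 was named in its title. The differences of these genes between treatments are therefore given as a description, and nothing is supported with them. RNA was sequenced from 20 samples of SW1990, a human cell line from pancreatic cancer, in what the series calls a mouse model. The labels give 4 treatments with 5 samples each, named after principles of traditional Chinese medicine: a heat-clearing one that also removes Dampness, a spleen-strengthening one that also regulates qi-flowing, a yin-nourishing one meant to eliminate heat, and a blood-activating one that removes stasis. No sample is labelled untreated, and the sources used here name neither herbs, dose, duration nor the age of any mice, and do not say whether samples are separate animals, tumours or cultures. P-values therefore measure only the spread between these samples, which may be technical.

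AHR is a transcription factor that rests in the cytosol with heat shock protein chaperones until a small molecule binds it. Its ligands include dioxins, tryptophan metabolites and many plant flavonoids and indoles. With a ligand bound it enters the nucleus, pairs with ARNT and switches on genes of xenobiotic metabolism, classically the cytochrome P450 enzyme CYP1A1. AHRR and TIPARP are induced by AHR and restrain it, and NQO1 and ALDH3A1 also answer to the antioxidant factor NRF2.

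The AHR:ARNT pair recognises a short core, GCGTG, so the 250 bases before each annotated start were searched for it on both strands in the RefSeq sequences of build GRCh38.p14. Of the 9 genes, 7 matched the table, with 10 start windows among them; CYP1B1 and ALDH3A1 had no entry. The core was present in 4 of the 10 windows, belonging to 3 genes (CYP1A1, TIPARP and AHRR), and in 32.2% of all 35116 start windows. The longer form TNGCGTG, which contains the core, was found in 1 of the 10 windows, that of AHRR printed here, and in 4.5% of all windows. The antioxidant core TGACNNNGC was found in 1 of the 10 windows, that of ARNT, and in 10.9% of all windows. Printed 5′ to 3′ on the gene's strand are 1 window of each gene with a core and that of CYP2S1, the gene whose levels differed most between treatments among those with over 1 CPM; capitals mark the core or its reverse complement CACGC.
CYP1A1, chr15:74725529-74725778, minus strand: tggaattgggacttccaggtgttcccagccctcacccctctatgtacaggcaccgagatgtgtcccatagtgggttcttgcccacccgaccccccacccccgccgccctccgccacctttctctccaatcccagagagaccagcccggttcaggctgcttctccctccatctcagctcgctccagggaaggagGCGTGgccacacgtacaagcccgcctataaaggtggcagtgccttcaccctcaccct
TIPARP, chr3:156674340-156674589, plus strand: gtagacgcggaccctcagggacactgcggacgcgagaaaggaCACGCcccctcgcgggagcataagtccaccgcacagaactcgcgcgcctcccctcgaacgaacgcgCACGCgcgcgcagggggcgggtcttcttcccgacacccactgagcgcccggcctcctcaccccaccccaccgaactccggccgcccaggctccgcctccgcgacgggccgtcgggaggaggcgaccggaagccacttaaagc
AHRR, chr5:321464-321713, plus strand: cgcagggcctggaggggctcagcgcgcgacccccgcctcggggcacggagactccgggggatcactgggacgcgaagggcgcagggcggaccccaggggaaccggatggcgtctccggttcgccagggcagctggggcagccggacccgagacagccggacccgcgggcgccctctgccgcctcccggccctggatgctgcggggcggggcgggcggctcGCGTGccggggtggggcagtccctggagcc
CYP2S1, chr19:41192969-41193218, plus strand: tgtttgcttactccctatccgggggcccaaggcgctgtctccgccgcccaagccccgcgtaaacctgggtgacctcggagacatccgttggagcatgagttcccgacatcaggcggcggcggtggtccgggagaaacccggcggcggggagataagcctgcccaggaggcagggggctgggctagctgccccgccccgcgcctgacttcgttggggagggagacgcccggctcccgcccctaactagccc
In CYP1A1 the core lay 53 to 57 bases before the start. In this TIPARP window there were 2 cores on the other strand, 138 to 142 and 204 to 208 bases before the start. In the AHRR window printed here the core lay 26 to 30 bases before the start, and the other AHRR window had 2 cores. In the CYP2S1 window these letters were absent. Bases farther from a start were not searched, so an absence covers these 250 bases only. A match is a description of the letters and not of binding.

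Total counts were 81.7 to 135.0 M per sample (M for mega). Levels are CPM, counts per M counts after TMM scaling. In 5 libraries, heat-clearing 1 and 2 and blood-activating 1, 8 and 9, RN7SK, a small nuclear RNA gene, took a share of 5.25 to 7.38%, where the remaining 15 libraries had 1.57 to 3.02%; they are called RN7SK-high, and values without them are given for the main differences described. The epithelial markers KRT8, KRT18, KRT19, KRT7, EPCAM and CDH1 summed to 1726.2 CPM or more in every library. Lists of hepatocyte, fibroblast, endothelial, leukocyte and acinar markers had group medians of at most 63.5 CPM in sum, and the keratinocyte list had 575.3 to 1192.1 CPM. No listed marker in the table was at 0 in all 20 libraries.

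The 9 genes spanned a wide range of level per length. Over the 20 libraries, and per kb of merged exon, AHR averaged 61.9 CPM per kb (28.8 to 95.8), NQO1 34.2 (24.7 to 55.6), TIPARP 17.7 (11.6 to 21.6) and ARNT 10.5 (8.24 to 12.9). AHR and NQO1 overlapped each other in range, and so did TIPARP and ARNT, while every NQO1 value lay above every TIPARP value. CYP2S1 at 2.1 CPM per kb (1.17 to 5.38) and ALDH3A1 at 2.04 CPM per kb (0.816 to 4.27) overlapped. AHRR at 0.061 CPM per kb and CYP1B1 at 0.0554 CPM per kb were near the limit of counting, and CYP1A1 was at 0.00424 CPM per kb. The receptor was thus well covered in all 20 libraries, and its textbook target CYP1A1 was all but undetected.

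**Figure D1:**
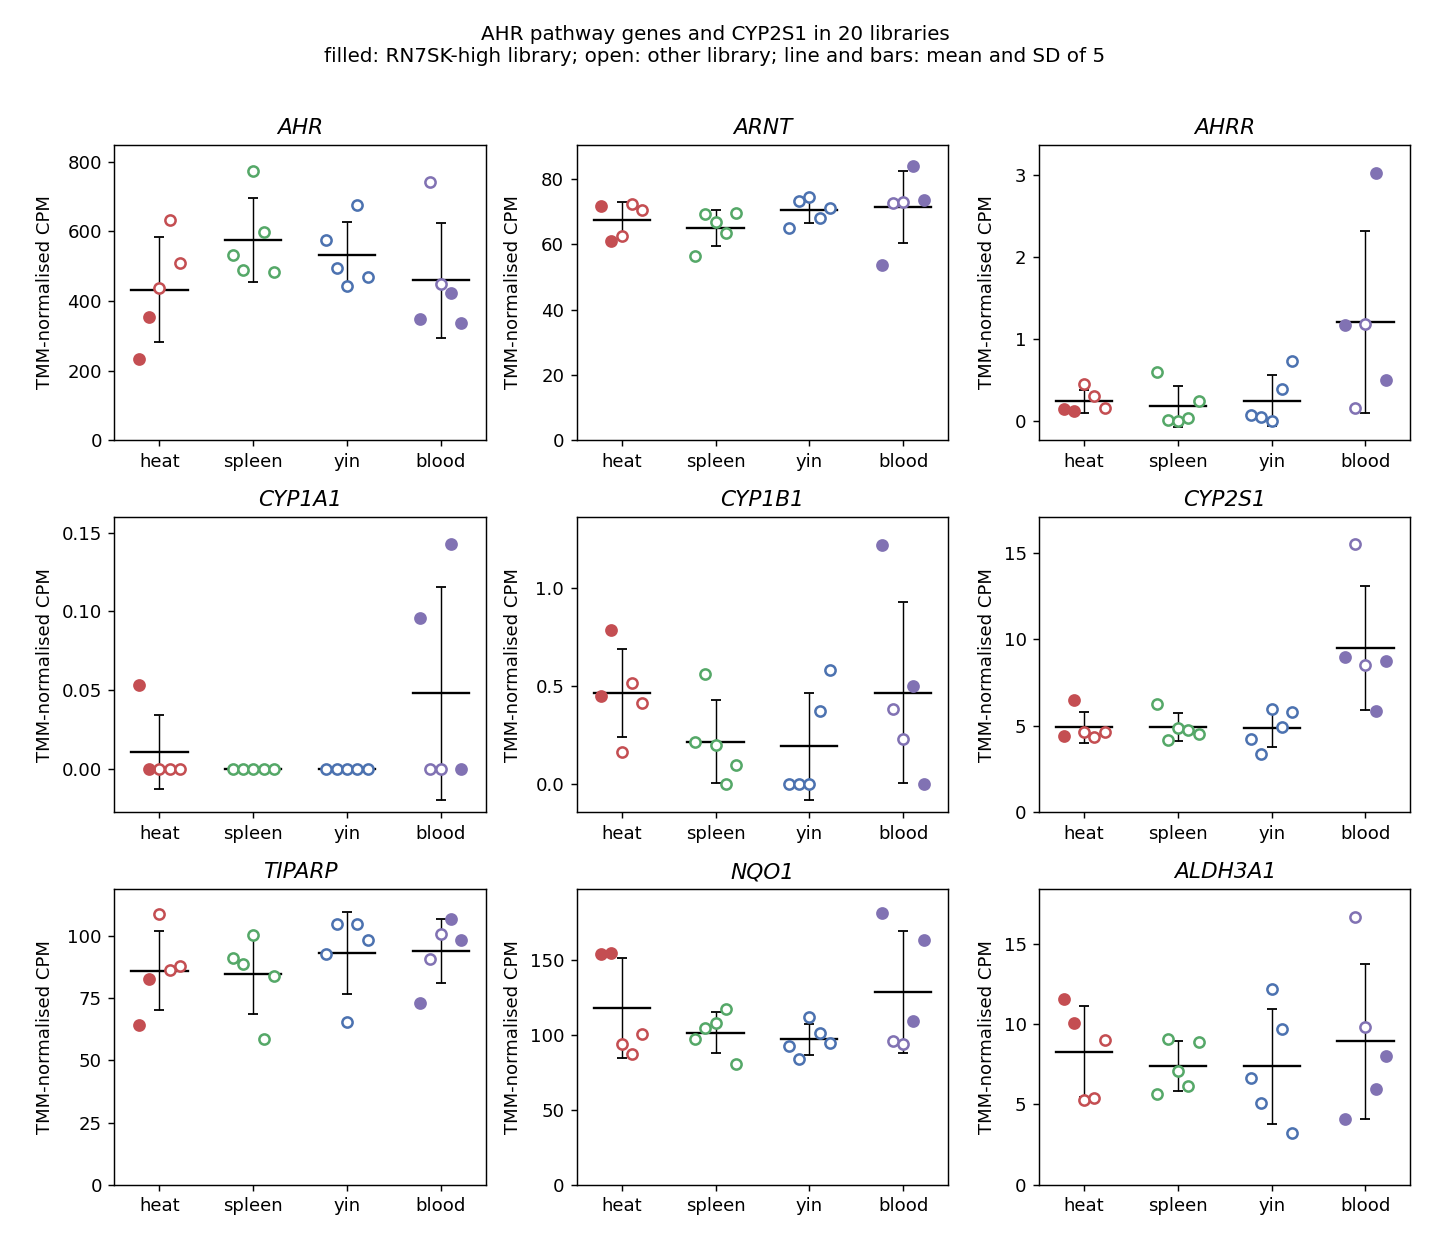
Level of each of the 9 genes (y axis, TMM-normalised CPM, a separate scale per gene) in the 5 libraries of each treatment (x axis: heat-clearing, spleen-strengthening, yin-nourishing, blood-activating). Each point is 1 library, filled where RN7SK-high, and the line and bars are the mean and SD; CYP2S1 has 4 blood-activating libraries above the 15 others, and CYP1A1 is at 0 in 17 libraries.

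The receptor itself, AHR (ENSG00000106546; chromosome 7, 16916359 to 17346152, plus strand, GENCODE 29 on GRCh38), differed between libraries more than between treatments. It had 232.3, 355.2, 437.3, 631.5 and 508.3 CPM in heat-clearing libraries 1, 2, 3, 7 and 9. It had 533.5, 488.8, 774.4, 597.4 and 482.0 CPM in spleen-strengthening 2, 5, 6, 7 and 8, and 575.6, 495.0, 442.1, 675.9 and 467.8 CPM in yin-nourishing 1, 4, 5, 7 and 10. In blood-activating 1, 4, 6, 8 and 9 it had 347.9, 743.1, 448.9, 422.3 and 337.1 CPM. All 4 groups overlapped. The largest of the 6 pairwise log2 fold changes was -0.41 (SE 0.232) for heat-clearing against spleen-strengthening, with means of 432.9 ± 151.2 and 575.2 ± 120.5 CPM (SD, n = 5 each), and AHR passed in none of the pairs (smallest adjusted p = 0.487, edgeR). Against blood-activating the log2 fold change was 0.32 (SE 0.231) for spleen-strengthening and 0.21 (SE 0.231) for yin-nourishing. AHR shares 2373 exonic bases on the same strand with AC019117.2, which had 0 to 177 counts per library. Those bases are part of the exon length behind its level per kb, and how reads were divided is uncertain.

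AHR was lowest in the RN7SK-high libraries. Those 5 held 232.3 to 422.3 CPM and the other 15 held 437.3 to 774.4 CPM, with no overlap under TMM, RLE or plain CPM scaling. Of all tested rows, 5.39% had the RN7SK-high libraries wholly below the others and 7.18% wholly above. Without those libraries the heat-clearing mean was 525.7 ± 98.3 CPM (n = 3), against 575.2 ± 120.5 CPM in the 5 spleen-strengthening samples, and the log2 fold change was -0.13 (SE 0.197, adjusted p = 1, edgeR). Against blood-activating the sign turned without them, to -0.04 (SE 0.224) for spleen-strengthening and -0.16 (SE 0.223) for yin-nourishing. Neither was larger in size than its SE. The longest AHR transcript has 38.2% GC, the lowest of the 9 genes. The part of RNA or library composition in these AHR values was not tested.

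ARNT (ENSG00000143437; chromosome 1, 150809705 to 150876768, minus strand), the partner that AHR shares with the hypoxia factors, was the steadiest of the 9. It ranged from 53.7 to 83.9 CPM over the 20 libraries, with group means of 67.5 ± 5.41 CPM in heat-clearing, 65.1 ± 5.49 CPM in spleen-strengthening, 70.4 ± 3.94 CPM in yin-nourishing and 71.4 ± 10.9 CPM in blood-activating samples (SD, n = 5 each). Its log2 fold changes in the 6 pairs lay between -0.13 and 0.05 (SE 0.105), and none passed (smallest adjusted p = 0.543, edgeR).

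AHRR (ENSG00000063438; chromosome 5, 304176 to 438291, plus strand), the repressor that competes with AHR for ARNT, was sparse and highest in blood-activating samples. Its counts were 17, 12, 42, 33 and 22 in heat-clearing 1, 2, 3, 7 and 9, then 64, 1, 0, 3 and 20 in spleen-strengthening 2, 5, 6, 7 and 8, and 7, 4, 0, 35 and 63 in yin-nourishing 1, 4, 5, 7 and 10. Blood-activating 1, 4, 6, 8 and 9 had 110, 18, 110, 340 and 50. Of all 951 AHRR counts, 628 came from the blood-activating group, 340 of them from replicate 8 alone.

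The groups' AHRR ranges overlapped in every pair. Means were 0.239 ± 0.137 CPM in heat-clearing, 0.177 ± 0.256 CPM in spleen-strengthening, 0.248 ± 0.314 CPM in yin-nourishing and 1.21 ± 1.11 CPM in blood-activating samples (SD, n = 5 each). Against blood-activating, the log2 fold change was -2.34 (SE 1.16) for heat-clearing, -2.75 (SE 1.18) for spleen-strengthening and -2.28 (SE 1.16) for yin-nourishing, and none passed by edgeR (adjusted p = 1, 0.184 and 0.306). Leaving out 1 library at a time gave -2.69 to -1.67, -4.05 to -2.09 and -3.26 to -1.61 for the same pairs. Without the RN7SK-high libraries these became -1.13 (SE 1.89), -1.90 (SE 1.65) and -1.43 (SE 1.67). AHRR shares 244 exonic bases on the same strand with PDCD6, which had 1698 to 3232 counts per library, and the read-through gene PDCD6-AHRR has a row of its own, at 0 in 19 libraries and 44 counts in 1. How reads were divided among them is uncertain.

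TIPARP (ENSG00000163659; chromosome 3, 156673235 to 156706770, plus strand), the ADP-ribosyltransferase that marks AHR for inactivation, is among the most widely induced AHR targets. Its range was 58.5 to 108.8 CPM over all libraries. Group means were 86.1 ± 15.9 CPM in heat-clearing, 84.7 ± 15.8 CPM in spleen-strengthening, 93.3 ± 16.4 CPM in yin-nourishing and 94 ± 13 CPM in blood-activating samples (SD, n = 5 each). The log2 fold changes lay between -0.15 and 0.02 (SE 0.155), and none passed (smallest adjusted p = 0.673, edgeR). With 4973 to 11970 counts per library, TIPARP was measured well above counting noise, and its treatment means differed by less than the SD within any group.

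The genes whose levels were most like TIPARP over the 20 libraries, among 14613 tested rows with a mean log2 CPM of 0 or more, were ERO1A (Pearson r = 0.91), MXD1 (0.85), GRPEL2 (0.85), PRDM1 (0.84) and SCEL (0.84). In the 15 libraries that were not RN7SK-high, r was 0.89, 0.84, 0.86, 0.85 and 0.80 for the same genes. ERO1A is an oxidase of the endoplasmic reticulum known to be induced by hypoxia. PRDM1 and MXD1 are transcriptional repressors. These are descriptions over samples that share 1 cell line and 1 normalisation.

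CYP1A1 (ENSG00000140465; chromosome 15, 74719542 to 74725610, minus strand) had 31 counts in the 1953.1 M of all 20 libraries. They came from 3 libraries, all RN7SK-high: 6 counts in heat-clearing 1, and 9 and 16 counts in blood-activating 1 and 8. The other 17 libraries had 0, which at 3 counts allows up to 0.0221 to 0.0368 CPM, depending on depth (counting error only). CYP1A1 did not pass the filter on low counts and was not tested, and no fold is given.

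CYP1B1 (ENSG00000138061; chromosome 2, 38066973 to 38109902, minus strand), a P450 enzyme of oestrogen and polycyclic hydrocarbon metabolism, was also near its floor, with 0 counts in 5 libraries and at most 114. Means were 0.464 ± 0.224 CPM in heat-clearing, 0.214 ± 0.212 CPM in spleen-strengthening, 0.191 ± 0.272 CPM in yin-nourishing and 0.465 ± 0.46 CPM in blood-activating samples (SD, n = 5 each). The SE of its log2 fold changes was 1.33 to 1.35, so that differences of a few fold in either direction were within the error. Against blood-activating the log2 fold change was -0.00 for heat-clearing, -1.11 for spleen-strengthening and -1.28 for yin-nourishing, and without the RN7SK-high libraries it was 0.26 (SE 2.12), -0.50 (SE 1.89) and -0.67 (SE 1.88). The counts varied within a group, at 114, 42, 21, 56 and 0 in blood-activating 1, 4, 6, 8 and 9. It shares 678 exonic bases with CYP1B1-AS1 on the other strand, which had 0 to 71 counts, and whether counting used strand is not given in the sources used here.

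CYP2S1 (ENSG00000167600; chromosome 19, 41193049 to 41207539, plus strand) is a P450 enzyme of epithelia, known as dioxin-inducible and as acting on retinoids and fatty acid products. It had 4.41, 6.51, 4.62, 4.38 and 4.65 CPM in heat-clearing 1, 2, 3, 7 and 9, and 6.29, 4.18, 4.86, 4.75 and 4.51 CPM in spleen-strengthening 2, 5, 6, 7 and 8. Yin-nourishing 1, 4, 5, 7 and 10 had 4.26, 3.35, 5.96, 4.91 and 5.82 CPM. Blood-activating 1, 4, 6, 8 and 9 had 8.95, 15.5, 8.52, 5.87 and 8.73 CPM. Of the blood-activating libraries 4 lay above all 15 others under TMM, RLE and plain CPM scaling, and replicate 8 lay within their range.

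CYP2S1 means were 4.91 ± 0.901 CPM in heat-clearing, 4.92 ± 0.81 CPM in spleen-strengthening and 4.86 ± 1.09 CPM in yin-nourishing samples, against 9.5 ± 3.55 CPM in blood-activating samples (SD, n = 5 each). The log2 fold changes against blood-activating were -0.95 (SE 0.229) for heat-clearing, -0.95 (SE 0.229) for spleen-strengthening and -0.97 (SE 0.229) for yin-nourishing. Among the first 3 treatments the log2 fold changes were 0.02 or less in size. By edgeR none of the 3 differences from blood-activating passed over all genes (adjusted p = 1, 0.0835 and 0.141), nor did the test over the 4 treatments (adjusted p = 0.172). These 3 comparisons share the blood-activating samples.

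The CYP2S1 difference was as large without the RN7SK-high libraries. In the other 15 libraries the log2 fold changes were -1.39 (SE 0.298) for heat-clearing, -1.28 (SE 0.264) for spleen-strengthening and -1.30 (SE 0.263) for yin-nourishing, with only blood-activating 4 and 6 left in that group, and none passed (adjusted p = 0.961, 0.194 and 0.6, edgeR). Replicate 4 held the highest CYP2S1 level, and without it the spleen-strengthening difference was -0.72 (SE 0.212) and passed (adjusted p = 0.0419, edgeR). It also passed without heat-clearing 3 (-0.95, SE 0.231, adjusted p = 0.046), as did the test over the 4 treatments (adjusted p = 0.0457). Of all 24790 rows, 2002 were called in spleen-strengthening against blood-activating without blood-activating 4, and 311 without heat-clearing 3. Over the 20 fits that leave out 1 library, the adjusted p of CYP2S1 in this pair was 0.0419 to 0.224 by edgeR.

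Sums of the acinar and keratinocyte lists varied along with the groups to some extent, and which cells made these transcripts was not tested. The 10 acinar genes summed to 5.92, 58.7, 716.2, 33.5 and 48.7 CPM in blood-activating 1, 4, 6, 8 and 9, where the ranges were 2.32 to 317.6 CPM in heat-clearing (median 3.28), 0.968 to 64.8 CPM in spleen-strengthening (median 3.73) and 1.64 to 826.8 CPM in yin-nourishing samples (median 3.55). The 4 ranges overlapped. Outside blood-activating, CYP2S1 was highest in heat-clearing 2, spleen-strengthening 2, yin-nourishing 5 and yin-nourishing 10, at 6.51, 6.29, 5.96 and 5.82 CPM. Their acinar sums were 56.1, 37.3, 3.55 and 826.8 CPM, the last being the largest of all libraries. Heat-clearing 3, spleen-strengthening 5 and yin-nourishing 7 had acinar sums of 317.6, 64.8 and 73.8 CPM, with CYP2S1 at 4.62, 4.18 and 4.91 CPM. The 5 keratinocyte genes in the table summed to 597.9 to 2014.5 CPM in heat-clearing, 339.3 to 928.8 CPM in spleen-strengthening, 716.4 to 937.3 CPM in yin-nourishing and 871.1 to 1784.5 CPM in blood-activating samples. The best covered were KRT5 and KRT14, with means of 751.3 and 443.6 CPM in blood-activating samples, where FLG and KRT10 had 36.9 and 11.2 CPM. The sums therefore say little about FLG and KRT10. In the 2 blood-activating libraries not RN7SK-high, FLG was at 37.7 to 102.4 CPM and KRT10 at 10.3 to 30.3 CPM. In the 3 RN7SK-high ones FLG was at 4.35 to 21.6 CPM and KRT10 at 1.93 to 7.26 CPM. The part of acinar and keratinocyte genes in the CYP2S1 values was not tested. In bulk RNA, fewer cells of a type and less RNA per cell cannot be told apart.

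**Figure D2:**
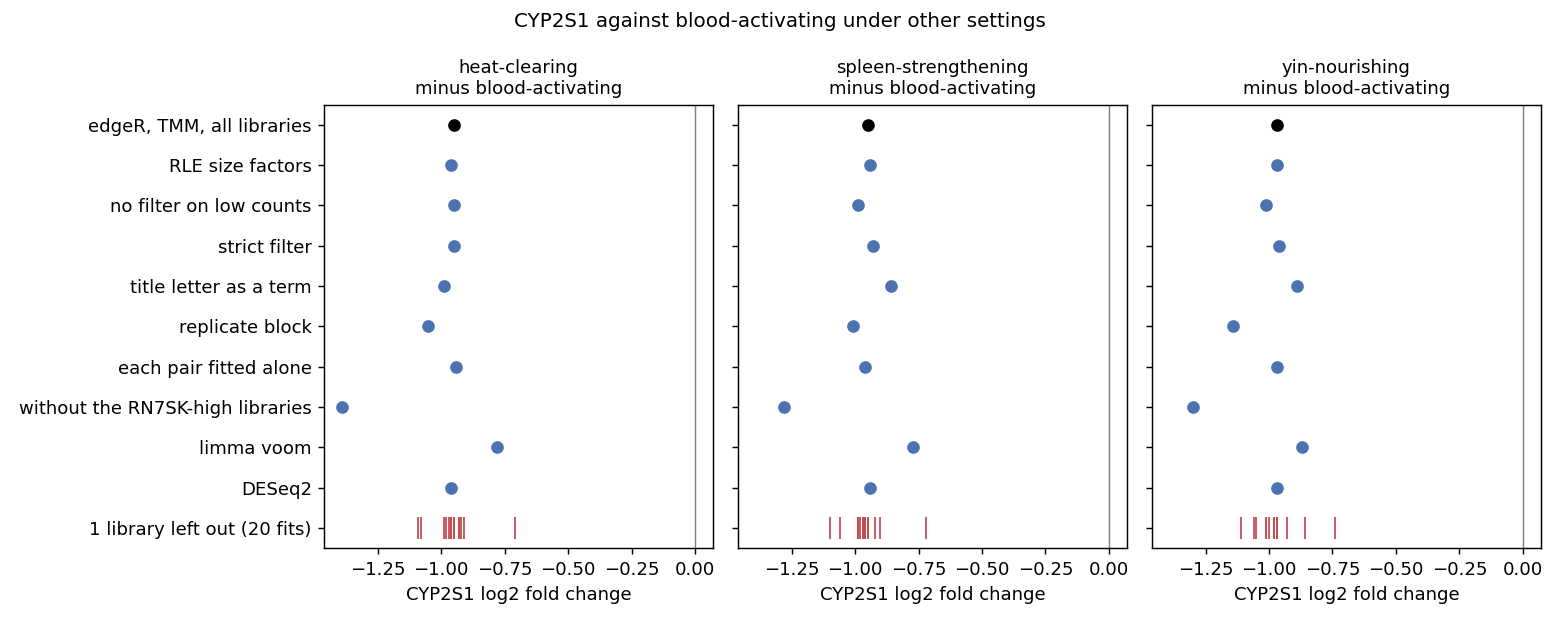
CYP2S1 log2 fold change (x axis) of heat-clearing, spleen-strengthening and yin-nourishing, each minus blood-activating, under the edgeR fit of all libraries (black), 9 other settings (blue) and 20 fits that each leave out 1 library (red ticks). Every value is below 0, from -1.39 without the RN7SK-high libraries to -0.71 in a fit without 1 library.

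The genes most like CYP2S1 over the 20 libraries were APOL2 (Pearson r = 0.71), KCTD18 (0.67), NCR3LG1 (0.67), SP100 (0.66) and AP5B1 (0.64), out of 14613 rows. APOL2 is an apolipoprotein L and SP100 a nuclear body protein, both known as interferon-induced. In the 15 libraries that were not RN7SK-high, r was 0.78, 0.64, 0.62, 0.59 and 0.65. These genes were picked as the highest of all those rows, and r includes the differences between treatments. Shared regulation was not tested.

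NQO1 (ENSG00000181019; chromosome 16, 69706996 to 69726951, minus strand), the quinone reductase, had 153.6, 154.2, 93.9, 87.2 and 100.2 CPM in heat-clearing 1, 2, 3, 7 and 9. Its level was 80.5 to 117.0 CPM in spleen-strengthening and 84 to 111.8 CPM in yin-nourishing samples. Blood-activating 1, 4, 6, 8 and 9 had 180.9, 95.7, 93.7, 109.4 and 163.2 CPM. The 4 highest of the 20 values all came from RN7SK-high libraries, while the remaining RN7SK-high library, blood-activating 8, lay within the range of the others.

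NQO1 means were 117.8 ± 33.3 CPM in heat-clearing, 101.4 ± 13.7 CPM in spleen-strengthening, 96.8 ± 10.4 CPM in yin-nourishing and 128.6 ± 40.6 CPM in blood-activating samples (SD, n = 5 each). The largest log2 fold change in size, -0.41 (SE 0.187) for yin-nourishing against blood-activating, did not pass (adjusted p = 0.246, edgeR). Without the RN7SK-high libraries it was 0.03 (SE 0.13), and that of spleen-strengthening against blood-activating was 0.11 (SE 0.131), set beside -0.34 (SE 0.187) with all libraries. Without those libraries neither of these NQO1 log2 fold changes was thus larger in size than its SE.

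**Figure D3:**
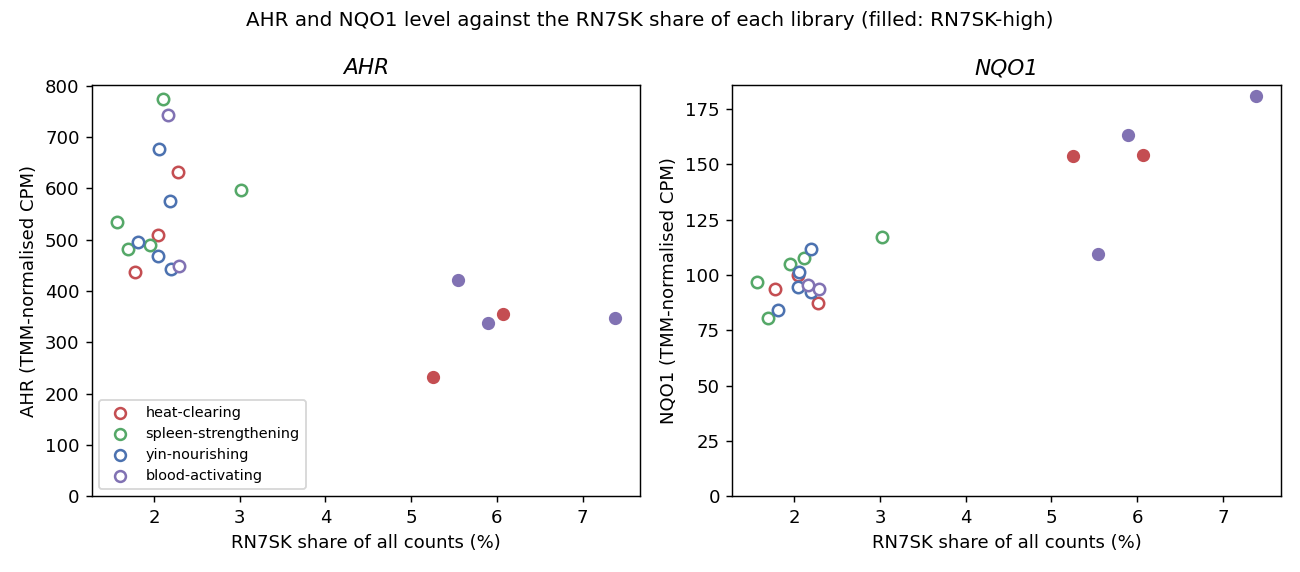
AHR (left) and NQO1 (right) level in TMM-normalised CPM against the share of RN7SK in all counts of the library (%), 1 point per library, coloured by treatment and filled where RN7SK-high. The 5 filled AHR points lie at 232.3 to 422.3 CPM, below the 15 open ones, and 4 of the 5 filled NQO1 points lie above every open one.

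ALDH3A1 (ENSG00000108602; chromosome 17, 19737984 to 19748943, minus strand), the aldehyde dehydrogenase of cornea and stomach that is also expressed in many carcinomas, ranged from 3.2 to 16.7 CPM. Means were 8.28 ± 2.82 CPM in heat-clearing, 7.37 ± 1.56 CPM in spleen-strengthening, 7.36 ± 3.6 CPM in yin-nourishing and 8.93 ± 4.87 CPM in blood-activating samples (SD, n = 5 each). No pair passed (log2 fold changes -0.28 to 0.17, SE 0.347 to 0.348, smallest adjusted p = 0.748, edgeR). Without the RN7SK-high libraries the log2 fold changes against blood-activating were -1.01 (SE 0.417) for heat-clearing, -0.84 (SE 0.374) for spleen-strengthening and -0.85 (SE 0.373) for yin-nourishing, and none passed. The highest value, 16.7 CPM, was that of blood-activating 4, the library with the highest CYP2S1.

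With all 20 libraries, edgeR called 0 of the 8 tested genes in the test over the 4 treatments and in each of the 6 pairs. It called 0.00807% of the 24790 tested rows in heat-clearing against spleen-strengthening, and 0% in the other 5 pairs and in the test over the 4 treatments, so this count says nothing particular about these genes. At an unadjusted p under 0.05 there was 1 member in the test over the 4 treatments and in heat-clearing against blood-activating, there were 2 in spleen-strengthening and 2 in yin-nourishing against blood-activating, and 0 in the other 3 pairs. The same share over all rows was 15.4%, 1.86%, 20.5% and 18.2%, and 4.72 to 11.5% in the other 3. DESeq2 called CYP2S1 in spleen-strengthening (adjusted p = 0.00605) and yin-nourishing (adjusted p = 0.0101) against blood-activating, and limma voom called CYP2S1 and AHRR in both of these pairs and NQO1 in the yin-nourishing pair. Over all rows DESeq2 called 1933 and limma voom 4880 in the spleen-strengthening pair, and 1055 and 4182 in the yin-nourishing pair.

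Heat-clearing was lower than blood-activating in 8 of the 8 tested genes by the sign of the log2 fold change, with CYP1B1 at -0.00 (median -0.12, all rows -0.01). Spleen-strengthening was lower in 7 of 8 (median -0.31, all rows -0.04), and so was yin-nourishing (median -0.34, all rows -0.09), AHR being the exception in both. Without the RN7SK-high libraries AHR turned to below 0 in both pairs and NQO1 to above 0, all of these within their SE of 0. Against blood-activating, 12767 of all 24790 rows were lower for heat-clearing, 13123 for spleen-strengthening and 13981 for yin-nourishing. The comparisons against blood-activating share its samples, so their counts are not independent. The genes were chosen with earlier results known, and a common direction of the pathway was not tested. In each of the 6 pairs 0 of the 9 genes had groups that did not overlap. The share of all tested rows with such groups was 1.26% in heat-clearing against spleen-strengthening, 1.16% in heat-clearing against yin-nourishing and 0.488% in heat-clearing against blood-activating. It was 0.77% in spleen-strengthening against yin-nourishing, 4.44% in spleen-strengthening against blood-activating and 4.12% in yin-nourishing against blood-activating.

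**Figure D4:**
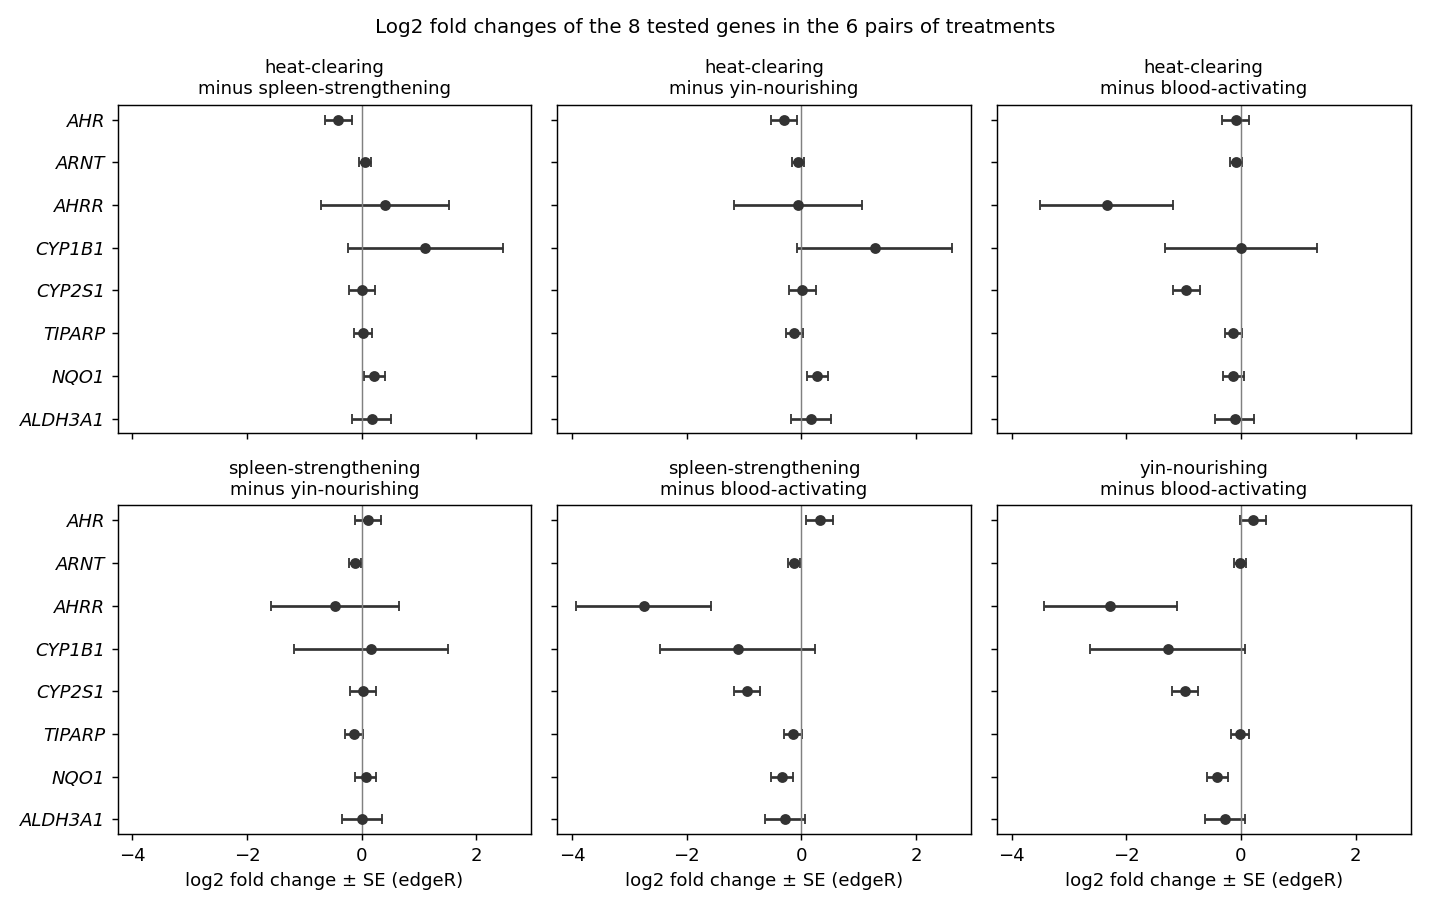
Log2 fold change (x axis, first-named treatment minus second, with SE) of the 8 tested genes in each of the 6 pairs of treatments. In the 3 pairs with blood-activating, AHRR lies at -2.75 to -2.28 and CYP2S1 at -0.97 to -0.95, and CYP1B1 lies at -0.00, -1.11 and -1.28; AHRR and CYP1B1 have the widest errors.

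Other genes of the pathway and of related ones were read from the same fit. Of 102 genes in 9 lists chosen by function, which cover AHR partners and targets as well as other receptors, P450 enzymes and retinoid genes, 87 were tested, and edgeR called 0 in any pair. The smallest adjusted p was 0.0835, for the Notch target HES1 in spleen-strengthening against blood-activating (log2 fold change -0.79, SE 0.161); HES1 was singled out after its values were seen.

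The chaperones and coactivators of AHR, 12 of 12 tested, had medians of -0.14 to 0.12 over the 6 pairs. HSP90AB1, which holds AHR ready for its ligand, averaged 922.4 ± 251.2 CPM in heat-clearing, 1081.8 ± 46 CPM in spleen-strengthening, 1067.8 ± 43.5 CPM in yin-nourishing and 819.5 ± 144.5 CPM in blood-activating samples. It was at 652.9 to 725.6 CPM in the RN7SK-high heat-clearing libraries and 961.2 to 1291.2 CPM in the other 3, and at 660.1 to 841.3 CPM in the RN7SK-high blood-activating libraries and 850.0 to 1032.7 CPM in the other 2. HIF1A, the hypoxia factor that also uses ARNT, averaged 403.7 ± 88.5, 464.0 ± 55.4, 437.1 ± 45.4 and 407.4 ± 55.5 CPM in the same order of groups. In heat-clearing it was at 322.4 to 324.4 CPM in the RN7SK-high libraries and 398.3 to 534.7 CPM in the others. In blood-activating HIF1A was at 330.8 to 473.3 CPM in the RN7SK-high libraries and 418.8 to 438.6 CPM in the others.

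Other genes known as AHR-induced, 17 of 18 tested, were lower than blood-activating by sign in 15 members for heat-clearing, 13 for spleen-strengthening and 11 for yin-nourishing. Of all 24790 rows, 12767, 13123 and 13981 were lower in these pairs. The medians were -0.28, -0.46 and -0.31 (all rows -0.01, -0.04 and -0.09). The lean was not particular to this list: 7, 6 and 7 of 8 other CYP2 genes were lower, and 5 of 5 keratinocyte genes in each pair. Of the 12 AHR chaperones and coactivators, 6, 5 and 4 were lower. Heat-clearing against yin-nourishing had a median of similar size, -0.34 (all rows 0.05), with 10 of the 17 lower, and -0.11 without the RN7SK-high libraries. Between spleen-strengthening and yin-nourishing 12 of the 17 were lower (median -0.24). Without the RN7SK-high libraries the 3 medians against blood-activating were -0.29, -0.46 and -0.15. The best-covered members were the growth factor EREG, at 165.2 ± 37.2 CPM in heat-clearing, 190.0 ± 21.6 CPM in spleen-strengthening, 196.3 ± 28.7 CPM in yin-nourishing and 169.5 ± 34.4 CPM in blood-activating samples, and NFE2L2, the gene of NRF2, at 175.2 ± 21.5, 160.6 ± 3.18, 172.4 ± 18.2 and 197.7 ± 25.4 CPM in the same order. The RN7SK-high libraries held 123.4 to 143.8 CPM of EREG in heat-clearing, where the other 3 held 164.3 to 222.6 CPM. In blood-activating they held 162.1 to 205.0 CPM of EREG, where the others held 115.2 to 190.9 CPM. For NFE2L2 they held 197.0 to 199.6 CPM in heat-clearing and 204.1 to 229.1 CPM in blood-activating, where the others held 155.1 to 165.3 and 159.3 to 192.0 CPM.

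Enzymes that make tryptophan-derived AHR ligands were thinly expressed, with 7 of 10 tested and 5 of 10 under a mean of 1 CPM. KYNU, which cleaves kynurenine, averaged 16.4 ± 4.76 CPM in heat-clearing, 16.2 ± 4.69 CPM in spleen-strengthening, 19.9 ± 7.66 CPM in yin-nourishing and 20.3 ± 6.03 CPM in blood-activating samples. The list of NRF2 and its targets other than NQO1, 14 of 14 tested, also holds KEAP1, and it shares NFE2L2 with the AHR-induced list. Its genes were lower than blood-activating by sign in 11 members for heat-clearing, 13 for spleen-strengthening and 13 for yin-nourishing. The medians were -0.15, -0.32 and -0.23 (all rows -0.01, -0.04 and -0.09). Without the RN7SK-high libraries these medians were 0.02, -0.11 and 0.01.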

How the data were processed

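RNA-seq counts of 20 samples were used. Per the submitters' processing notes the tools were HISAT2 and StringTie and the build hg38; versions, annotation, filters, strand setting and any removal of mouse reads are not given here in the labels or notes. Per the labels, ribosomal RNA was removed and the library kit keeps strand. The authors deposited whole-number counts per gene, not normalised. The 9 genes, the lists, the comparisons and the alternatives were chosen with earlier results of these data known.

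The counts were TMM-scaled and entered edgeR 4.0.16 under R 4.3.3 (robust quasi-likelihood F-test, all 20 samples in 1 fit, treatment as the only term). The filter, with a minimum count of 10, left 24790 of 60656 rows and 8 of the 9 genes; AHRR reached the filter's level of 0.107 CPM in 5, 2, 2 and 5 samples of the heat-clearing, spleen-strengthening, yin-nourishing and blood-activating groups. P-values were adjusted by Benjamini-Hochberg over all tested rows in each comparison (threshold 0.05). Other tools were limma 3.58.1, as voom with weights per sample, and DESeq2 1.42.0. The fit was tested on counts simulated with the same spread for every gene and no RN7SK-high libraries. That test does not cover the differences between libraries seen here. RN7SK-high means over 4% of counts. Positions, exon lengths and GC came from GENCODE 29. Likeness used log2 CPM with a prior count of 2. All 9 genes are named; from the other lists the 4 best-covered members were eligible where none passed. Counts are of reads without molecular identifiers, so limits from a count of 0 cover counting error only. Depth was 81.7 to 135.0 M per sample.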

Additional observations from a re-analysis of the deposited data

Results flagged for a closer look

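In 34 sets of 5 samples (9 genes by 4 treatments, less 2 sets with CYP1A1 at 0 throughout), 3 values stood far from the other 4. By chance about 1 in 20 such sets would hold one, so some are expected among 34. AHR was at 743.1 CPM in blood-activating 4, with 337.1 to 448.9 CPM in the other 4 libraries of that group; 3 of those 4 are RN7SK-high. CYP2S1 was at 6.51 CPM in heat-clearing 2, with 4.38 to 4.65 CPM in the others. CYP1A1 was at 0.0529 CPM in heat-clearing 1, which is 6 counts, with 0 in the others. With 0 in the other 4, any count would be flagged.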

How the results depend on the processing

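Over 1379 log2 fold changes of the 8 tested genes (6 pairs, all alternatives), 1366 moved by less than the SD within groups and 13 by more, among them those of CYP1B1 under the replicate block or limma voom. The count of genes called was 0 in every comparison by edgeR with all libraries, and stayed 0 under RLE scaling, no filter, a filter of at least 1 CPM in 5 samples, a term for the letter ending each title, each pair alone and without the RN7SK-high libraries. With limma voom it was 1 in the test over the 4 treatments, 2 in spleen-strengthening and 3 in yin-nourishing against blood-activating; with DESeq2 it was 1 in each of these 3. Leaving out 1 library gave 0 to 1 in the 4-treatment test and in spleen-strengthening against blood-activating, and 0 elsewhere. The cause was not tested.

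Over all 24790 rows, edgeR, limma voom and DESeq2 called 0, 2175 and 1259 in the 4-treatment test, 0, 4880 and 1933 in spleen-strengthening against blood-activating, 0, 4182 and 1055 in yin-nourishing against blood-activating, and 2, 3 and 67 in heat-clearing against spleen-strengthening. Leaving out blood-activating 4 moved edgeR's count to 2002 in spleen-strengthening and 361 in yin-nourishing against blood-activating, and leaving out heat-clearing 3 moved it to 378 in the 4-treatment test and 311 in spleen-strengthening against blood-activating. No pairing by the replicate numbers shared across groups was seen. Deviations of same-numbered samples correlated at -0.0453 to 0.17 over 12 pairs, and those of differently numbered samples at -0.202 to 0.17 over 138 pairs. Of 18 samples, 2 correlated best with their own number. A weak pairing may not show in these correlations. With the number as a replicate block, 0 of the 8 genes were called in every comparison, and of all rows 1, 2 and 1 were called in the first 3 of these comparisons. AHRR, CYP1A1 and CYP1B1 are limited by their low counts.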

Other observations

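Other receptors and P450 genes were largely silent in these libraries. Of 12 genes of the receptors PXR and CAR and their targets, 10 averaged under 1 CPM; CYP3A5, a P450 enzyme of drug metabolism, was the exception beside RXRA, at 21.8 ± 7.89 CPM in heat-clearing, 22.3 ± 6.36 CPM in spleen-strengthening, 23.8 ± 8.71 CPM in yin-nourishing and 27.6 ± 11.7 CPM in blood-activating samples (SD, n = 5 each). Of 12 other CYP2 family genes, 10 averaged under 1 CPM, and the best covered was CYP2R1, a vitamin D hydroxylase, at 2.74 ± 0.488 CPM in heat-clearing, 2.12 ± 0.386 CPM in spleen-strengthening, 2.63 ± 0.714 CPM in yin-nourishing and 3 ± 0.525 CPM in blood-activating samples. POR, the reductase that supplies electrons to these enzymes, was at 34.2 ± 14.7, 25 ± 3.8, 23.6 ± 3.47 and 34.4 ± 5.73 CPM in the same order. POR was at 44.6 to 54.3 CPM in the RN7SK-high heat-clearing libraries and 19 to 27.6 CPM in the other 3, and at 35.6 to 41.3 CPM in the RN7SK-high blood-activating libraries and 26.1 to 31.8 CPM in the other 2. Of the retinoid genes 13 of 15 were tested, and the binding protein gene CRABP2 was at 60.1 ± 21.8, 43.3 ± 3.35, 42.9 ± 7.76 and 75.5 ± 26.2 CPM in that order. CRABP2 was at 78.1 to 86.2 CPM in the RN7SK-high heat-clearing libraries and 89.3 to 99.3 CPM in the RN7SK-high blood-activating ones, and at 35.1 to 57.1 and 45 to 49.4 CPM in the other libraries of those groups; the part of those libraries in these values was not tested. edgeR called 0 genes of these lists in any pair.

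The genes most like CYP1A1 over the 20 libraries, led by AL355075.4 (Pearson r = 0.91), rest on the 3 libraries with any CYP1A1 count, since the other 17 are at 0.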
